A study of Mus musculus with 8 samples.

Results

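The genes described here are 5 effector genes of Th17 helper T cells: Il17a, Il17f, Il21, Ccl20 and Il23r. They were taken by name from the array's annotation, as probesets paired with exactly 1 symbol, and each of the 5 genes had 1 such probeset. They are 5 of the 19938 genes measured on 8 arrays. Total RNA came from CD4+ T cells, sorted as naive (CD25-, CD62L high, CD44 low) out of the spleens and lymph nodes of mice on a C57BL/6 background. The 4 groups were Th17 Tet2-/-, Th17 wild-type, Th1 Tet2-/- and Th1 wild-type cells, with 1 array for each of 2 biological replicates per group. Antibodies to CD3 and CD28 activated the cells in every culture. Th17 cultures received TGF-β1 at 0.5 ng/ml with IL-6 at 10 ng/ml, and antibodies that block interferon-γ and IL-4. Th1 cultures received IL-12 at 10 ng/ml with IL-2 at 30 U/ml, and the same block of IL-4. The sources used here do not say whether IL-23 or IL-1β went into the Th17 cultures, how and in which cells Tet2 was deleted, or how old the mice were. The series asks how Tet2, which oxidises the methyl mark on cytosines of DNA, bears on helper T cell cytokines.

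Th17 cells are helper T cells that secrete IL-17A and IL-17F, a pair of related cytokines encoded side by side, which act on epithelial and stromal cells to draw in neutrophils. TGF-β and IL-6 start the program in naive cells through STAT3 and lineage transcription factors. IL-21, which the cells make themselves, and IL-23, which they sense through IL-23R, carry it on. CCL20 is a chemokine whose receptor, CCR6, is carried by Th17 cells. In Th1 cells, which are driven by IL-12 and T-bet and secrete interferon-γ, this program is normally off.

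Levels are log2 intensities, so a difference of 1 is a doubling of signal. They are compared between arrays for 1 gene, not between genes, since probesets differ in brightness. Array medians lay between 6.47 and 6.53. The correlation across genes was 0.990 to 0.994 within groups and 0.977 to 0.995 between groups. The Tet2 probeset read 8.37 and 8.42 in Th17 Tet2-/- cells, against 8.53 and 8.51 in Th17 wild-type cells, and 8.12 and 7.97 in Th1 Tet2-/- cells, against 8.14 and 8.03 in Th1 wild-type cells. Whether this probeset lies in the deleted stretch is unknown, and the genotype labels cannot be checked by it. The Th17 cultures differed in sex-linked transcripts. Xist read 8.62 and 11.3 in Th17 Tet2-/- cells, against 5.20 and 10.1 in Th17 wild-type cells, and 4.83 to 5.11 on the Th1 arrays. The mean of 3 Y-linked genes was 8.71 and 4.85 in Th17 Tet2-/- cells, against 8.80 and 7.82 in Th17 wild-type cells, and 7.94 to 8.24 on the Th1 arrays. Th17 Tet2-/- replicate 2 therefore stood apart in its Y-linked level. For the 5 genes, the genotype differences in Th17 cells are given with and without it. The interaction, the mean effect and the genotype differences of list genes are mostly given with it only, or as ranges over arrays left out. Xist also read higher on every Th17 array than on any Th1 array. The part of this in the differences between cell types was not tested.

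The bases just upstream of each gene are shown because these 5 genes were higher together in Th17 cells. The 250 bases before each RefSeq start (GRCm38.p6) are written 5′ to 3′ on the gene's own strand. They cover chr1:20730655-20730904 for Il17a and chr1:83116516-83116765 for Ccl20 on the plus strand. On the minus strand they cover chr1:20784271-20784520 for Il17f, which lies inside that gene's annotated span, chr3:37232637-37232886 for Il21 and chr6:67491856-67492105 for Il23r. Capitals mark AGGTCA on either strand (read as TGACCT on the other), the core letters that ROR factors bind. They also mark TGANTCA, a loose form of the AP-1 motif with any base at its centre.
Il17a: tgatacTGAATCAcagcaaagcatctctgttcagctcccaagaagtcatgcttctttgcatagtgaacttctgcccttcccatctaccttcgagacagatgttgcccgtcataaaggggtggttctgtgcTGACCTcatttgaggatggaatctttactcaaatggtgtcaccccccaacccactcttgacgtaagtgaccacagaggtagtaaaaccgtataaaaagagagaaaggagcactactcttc
Il17f: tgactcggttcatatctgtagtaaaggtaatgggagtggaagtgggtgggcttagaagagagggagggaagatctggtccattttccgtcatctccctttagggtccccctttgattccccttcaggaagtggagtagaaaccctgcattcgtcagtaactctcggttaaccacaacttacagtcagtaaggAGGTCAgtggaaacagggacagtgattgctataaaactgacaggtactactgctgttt
Il21: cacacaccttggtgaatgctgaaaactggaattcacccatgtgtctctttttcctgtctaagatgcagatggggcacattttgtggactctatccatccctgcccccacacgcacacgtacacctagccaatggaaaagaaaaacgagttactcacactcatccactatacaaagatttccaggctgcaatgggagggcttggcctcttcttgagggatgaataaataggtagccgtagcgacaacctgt
Ccl20: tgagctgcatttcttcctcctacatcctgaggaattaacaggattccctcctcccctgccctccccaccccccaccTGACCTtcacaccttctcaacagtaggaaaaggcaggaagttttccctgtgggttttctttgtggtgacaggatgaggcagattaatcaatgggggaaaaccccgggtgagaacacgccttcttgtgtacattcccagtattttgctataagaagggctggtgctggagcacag
Il23r: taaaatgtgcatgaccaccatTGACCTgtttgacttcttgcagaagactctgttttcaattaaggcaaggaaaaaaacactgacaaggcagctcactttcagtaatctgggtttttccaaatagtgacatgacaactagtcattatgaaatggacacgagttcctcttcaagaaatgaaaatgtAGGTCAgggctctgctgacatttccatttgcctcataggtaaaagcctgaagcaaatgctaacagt
AGGTCA occurred once in the Il17a window (bases 120 to 115 before the start), once in that of Il17f (58 to 53), once in that of Ccl20 (174 to 169) and at 2 places in that of Il23r (229 to 224 and 66 to 61). The Il21 window held none. Of 32851 RefSeq promoter windows of this length, 14% held at least 1 match. TGANTCA matched in the Il17a window at bases 244 to 238, as TGAATCA with A at the centre, and 6.75% of all windows held TGANTCA. TTCNNNGAA, the STAT motif, matched in 0 of the 5 windows and in 7.02% of all windows. Both strands were searched and no marked matches overlapped. The windows held 4 CpG dinucleotides for Il17a, 4 for Il17f, 5 for Il21, 2 for Ccl20 and 1 for Il23r, against a median of 6 over all windows. CpG dinucleotides are the sites that DNA methylation and Tet2 act on, and methylation was not measured on these arrays.

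All 5 genes were higher in Th17 than in Th1 cells, in both genotypes. Genes with a limma p under 0.05 after adjustment are named called. In Tet2-/- cells 5 of 5 were called higher, where 7.14% of all genes were (10.4% in either direction). In wild-type cells 5 of 5 were, where 5.3% of all genes were (8.47% in either direction). Their arrays did not overlap between cell types in either genotype, which held in the higher direction for 28.8% of all genes in Tet2-/- cells and for 25.2% in wild-type cells. The 2 genotypes were measured on different arrays. The comparisons of genotypes further on reuse these same 8 arrays. Single arrays moved the background: the genes called in either direction numbered 2078 in Tet2-/- cells, and 815 and 1146 without Th17 Tet2-/- replicates 1 and 2, and 1003 and 1251 without Th1 Tet2-/- replicates 1 and 2. In wild-type cells they numbered 1689, and 667 without Th17 wild-type replicate 2 and 1013 without Th1 wild-type replicate 1. In bulk RNA, a change in the share of cells that express a gene and a change in RNA per cell cannot be told apart. Members and lists were taken with their link to Th17 cells known, so these counts describe the cultures.

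Il17a, the signature cytokine gene of the lineage, lies at chr1:20730905-20734496 (GRCm38.p6). It read 9.43 and 8.91 in Th17 Tet2-/- cells, against 9.81 and 9.85 in Th17 wild-type cells. In Th1 cells it read 6.00 and 6.14 in the Tet2-/- group and 5.89 and 6.20 in the wild-type group. The order of the group means was Th17 wild-type, Th17 Tet2-/-, then the Th1 groups, whose arrays overlapped and lay under every array median. Th17 cells exceeded Th1 cells by 3.10 in the Tet2-/- genotype (SE 0.164, adjusted p = 2.43e-07), an 8.56-fold difference, and by 3.78 in the wild-type genotype (SE 0.164, adjusted p = 3.49e-08), a 13.8-fold difference.

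Il17f, which encodes the closest relative of IL-17A and pairs with it as a heterodimer, lies 42.6 kb from Il17a at chr1:20777146-20785274. It read 11.01 and 10.61 in Th17 Tet2-/- cells, against 10.76 and 11.03 in Th17 wild-type cells. In Th1 cells the values were 6.66 and 6.76 in the Tet2-/- group and 6.55 and 6.85 in the wild-type group. The genotypes overlapped in both cell types, and the cell types were far apart. The difference between Th17 and Th1 cells was 4.10 in Tet2-/- cells (SE 0.161, adjusted p = 2.04e-08), or 17.2-fold, and 4.19 in wild-type cells (SE 0.161, adjusted p = 2.10e-08), or 18.3-fold.

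Il21, at chr3:37222759-37232636, encodes a cytokine that acts back on T cells and on B cells. Its probeset read 11.02 and 10.73 in Th17 Tet2-/- cells, against 11.33 and 11.26 in Th17 wild-type cells. Unlike the IL-17 genes it lay well above the array medians in Th1 cells too, at 8.78 and 9.28 in the Tet2-/- group and 9.72 and 9.46 in the wild-type group. Its 4 groups did not overlap, in the order Th17 wild-type, Th17 Tet2-/-, Th1 wild-type and Th1 Tet2-/-. The excess in Th17 cells was 1.84 in Tet2-/- cells (SE 0.172, adjusted p = 3.17e-05), or 3.59-fold, and 1.70 in wild-type cells (SE 0.172, adjusted p = 6.46e-05), or 3.25-fold.

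Ccl20, at chr1:83116766-83119167, encodes the chemokine that binds CCR6. It read 8.27 and 7.75 in Th17 Tet2-/- cells, against 9.09 and 8.96 in Th17 wild-type cells, and the genotypes did not overlap. In Th1 cells it read 7.25 and 6.88 in the Tet2-/- group and 6.72 and 6.97 in the wild-type group, which overlapped. Th17 cells exceeded Th1 cells by 0.95 in the Tet2-/- genotype (SE 0.176, adjusted p = 0.00464), or 1.93-fold, and by 2.18 in the wild-type genotype (SE 0.176, adjusted p = 1.05e-05), or 4.53-fold. The call in Tet2-/- cells was lost without Th17 Tet2-/- replicate 1 (0.69, adjusted p = 0.0665), without Th1 Tet2-/- replicate 2 (0.76, adjusted p = 0.0522) and with every probeset tested (0.95, adjusted p = 0.0639). The calls for Il17a, Il17f, Il21 and Il23r in both genotypes, and for Ccl20 in wild-type cells, held under 18 of 18 alternatives.

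Il23r, at chr6:67422932-67491855, encodes the chain of the IL-23 receptor that is particular to IL-23. It read 9.68 and 9.65 in Th17 Tet2-/- cells, against 10.07 and 9.70 in Th17 wild-type cells. In Th1 cells it lay under the array medians, at 5.67 and 5.31 in the Tet2-/- group and 5.29 and 5.45 in the wild-type group. The Th17 arrays of the genotypes were separated by a narrow gap and the Th1 arrays overlapped. Th17 cells exceeded Th1 cells by 4.17 in the Tet2-/- genotype (SE 0.153, adjusted p = 1.15e-08), or 18.0-fold, and by 4.52 in the wild-type genotype (SE 0.153, adjusted p = 6.53e-09), or 22.9-fold.

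**Figure D1:**
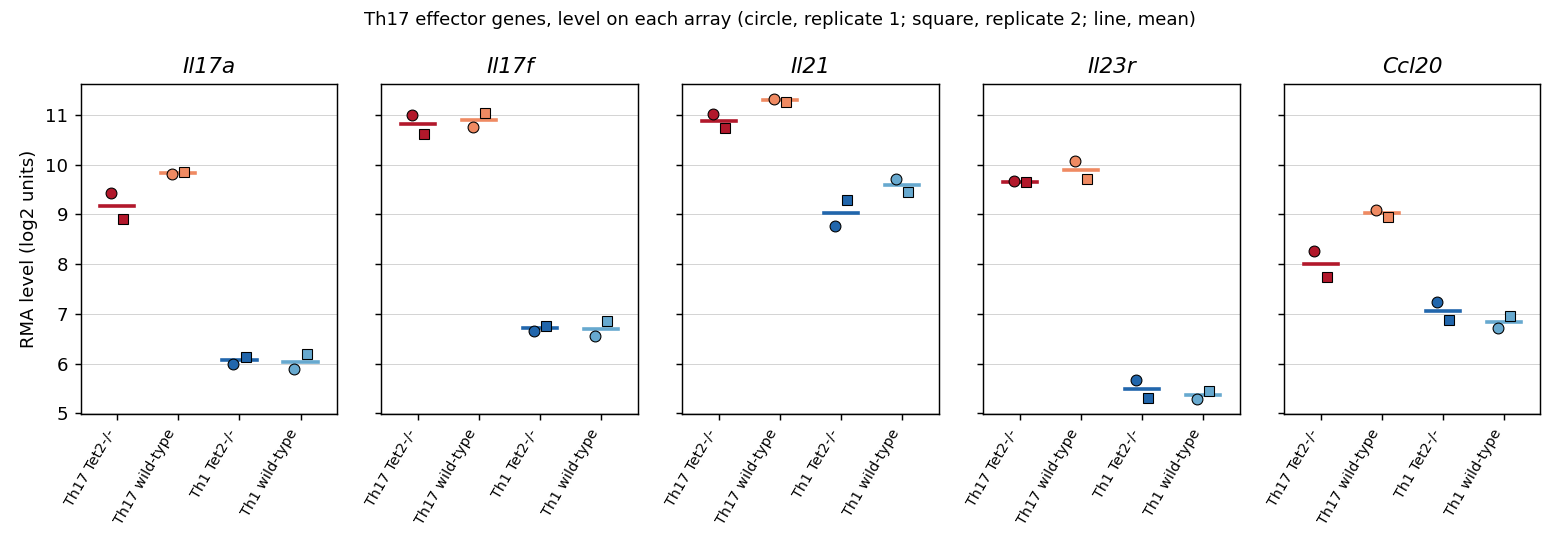
Level of each of the 5 genes (log2 intensity, y axis) on every array, with the 4 groups along the x axis; points are arrays and bars are group means. Every Th17 array lies above every Th1 array for each gene, and in Th17 cells Ccl20 has the widest gap between genotypes, at 8.27 and 7.75 in Tet2-/- cells against 9.09 and 8.96 in wild-type cells.

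**Figure D2:**
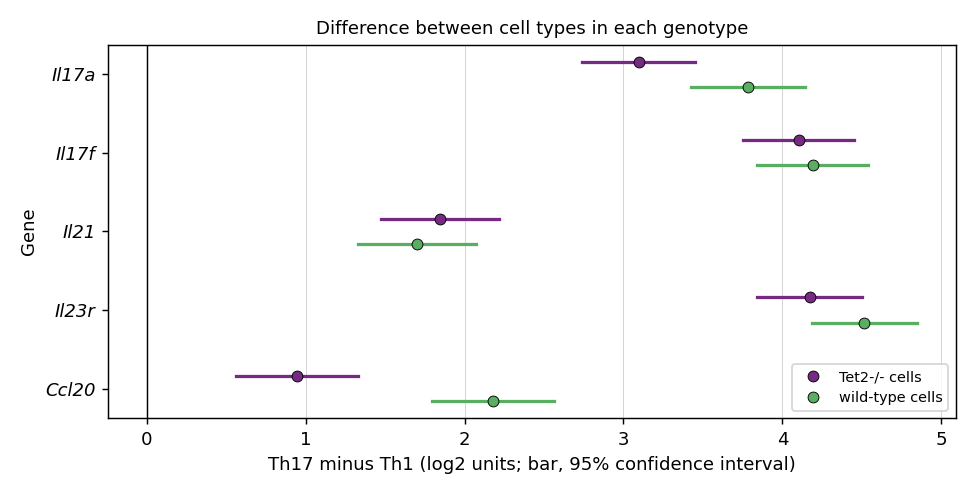
Difference between Th17 and Th1 cells (log2) for each gene in Tet2-/- and in wild-type cells, with 95% confidence intervals from limma. All intervals lie above 0, and the Ccl20 difference is 0.95 in Tet2-/- cells and 2.18 in wild-type cells.

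The question of the series is what the loss of Tet2 changed, and within Th17 cells none of the 5 genes passed the test. No gene of the 19938 was called in that comparison (0% in either direction), 848 had an unadjusted p under 0.05 (561 higher and 287 lower), and the smallest adjusted p was 0.0689, for Lum. Without Th17 Tet2-/- replicate 1, 9 genes were called, Ccl20 among them, and without Th17 wild-type replicate 1, 2 genes were. At the unadjusted level 3 of the 5 genes were among them, Il17a, Il21 and Ccl20. The arrays of 4 of the 5 genes, all but Il17f, lay lower in Tet2-/- cells without overlap, which was the case for 13.3% of all genes, while 19.9% lay higher without overlap. With 2 arrays per group, differences of 0.33 to 0.38 in these genes reached an unadjusted p of 0.05, and larger ones were needed after adjustment.

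Ccl20 had the largest difference of the 5. Its mean was 8.01 ± 0.365 in Th17 Tet2-/- cells and 9.02 ± 0.0933 in Th17 wild-type cells (SD, n = 2 each). This is a difference of -1.01 (limma SE 0.176, adjusted p = 0.224), with a 95% confidence interval of -1.40 to -0.63, or 2.02-fold lower. By p it ranked 7 among all genes. Without Th17 Tet2-/- replicate 2 the difference was -0.76 (adjusted p = 1.00), and without Th17 Tet2-/- replicate 1 it was -1.27 (adjusted p = 0.0475), the setting in which Ccl20 was called. Fitted with the Y-linked level in the model, it was -0.81 (adjusted p = 0.795), and without the arrays of lowest and highest Y-linked level (Th17 Tet2-/- replicate 2 and Th17 wild-type replicate 1) it was -0.69. Over all 18 alternatives it ran from -1.27 to -0.69 and kept its direction.

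Il17a averaged 9.17 ± 0.364 in Th17 Tet2-/- cells and 9.83 ± 0.0295 in Th17 wild-type cells (SD, n = 2 each). Il17a thus differed by -0.66 (SE 0.164, adjusted p = 0.730; 95% confidence interval -1.02 to -0.30), or 1.58-fold lower. It was -0.40 without Th17 Tet2-/- replicate 2 and -0.92 without replicate 1 of that group, with adjusted p between 0.193 and 1 over the alternatives. Il17f, its neighbour, averaged 10.8 ± 0.279 in Th17 Tet2-/- cells and 10.9 ± 0.197 in Th17 wild-type cells, a difference of -0.08 (95% confidence interval -0.43 to 0.27, adjusted p = 0.999). That interval leaves room for a shift in either direction, and the sign turned to 0.11 without Th17 Tet2-/- replicate 2. The log2 ratio of the Il17a to the Il17f signal within an array was -1.58 and -1.70 in Th17 Tet2-/- cells, against -0.95 and -1.19 in Th17 wild-type cells. The groups did not overlap and their means differed by -0.58, with an exact two-sided permutation p of 0.333, the smallest that 2 arrays against 2 can give. In Th1 cells this ratio was -0.654 and -0.621 in the Tet2-/- group and -0.664 and -0.657 in the wild-type group. These groups did not overlap either, though their means differed by only 0.022, and the exact permutation p was again 0.333. The lack of overlap and this p were thus not particular to Th17 cells. Both genes were near or under the array medians there.

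Il21 averaged 10.9 ± 0.201 in Th17 Tet2-/- cells and 11.3 ± 0.0501 in Th17 wild-type cells (SD, n = 2 each). The genotypes differed by -0.42 (SE 0.172, adjusted p = 0.999), with a 95% confidence interval of -0.79 to -0.05. Without Th17 Tet2-/- replicate 2 it was -0.28. Il23r averaged 9.66 ± 0.0252 in Th17 Tet2-/- cells and 9.89 ± 0.258 in Th17 wild-type cells, a difference of -0.22 (95% confidence interval -0.55 to 0.11, adjusted p = 0.999). The Il23r difference was -0.21 without Th17 Tet2-/- replicate 2, -0.04 without Th17 wild-type replicate 1 and -0.41 without Th17 wild-type replicate 2, and came to -0.02 without the arrays of lowest and highest Y-linked level. Th17 Tet2-/- replicate 2 read lower than replicate 1 of its group for each of the 5 genes. The differences were -0.52 for Il17a, -0.39 for Il17f, -0.28 for Il21, -0.52 for Ccl20 and -0.04 for Il23r. The part of Th17 Tet2-/- replicate 2 in the genotype differences, beyond the values without it, was not tested.

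**Figure D3:**
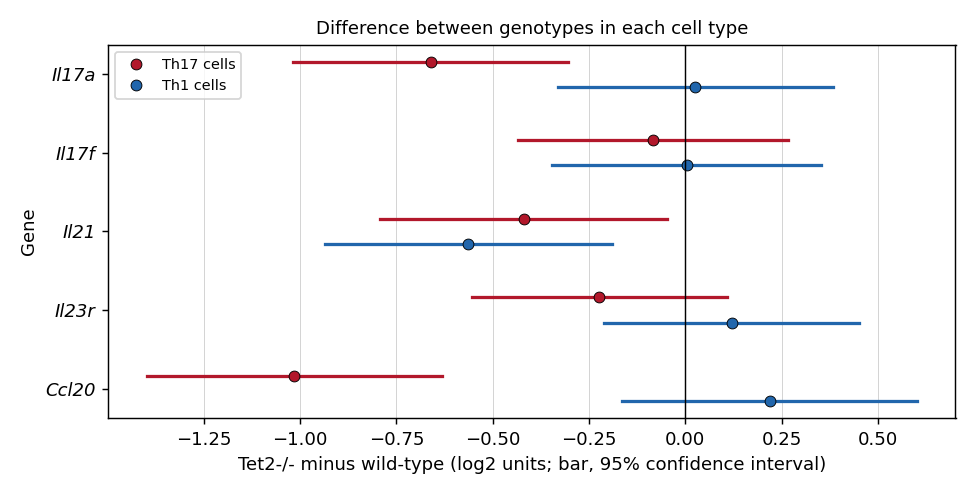
Difference between Tet2-/- and wild-type cells (log2) for each gene in Th17 and in Th1 cells, with 95% confidence intervals from limma before adjustment. In Th17 cells the intervals of Ccl20, Il17a and Il21 lie under 0, and in Th1 cells that of Il21 does; none passed after adjustment over all genes.

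In Th1 cells none of the 5 genes was called between genotypes, and 1 gene in all was (0.00502% of those tested), Ifng, which was lower in Tet2-/- cells. That count was 0 without Th1 wild-type replicate 2 or Th1 Tet2-/- replicate 2, and 2 without Th1 Tet2-/- replicate 1. Il21 was the member with the largest difference, at 9.03 ± 0.358 in Th1 Tet2-/- cells and 9.59 ± 0.185 in Th1 wild-type cells (SD, n = 2 each). This gave -0.56 (SE 0.172, 95% confidence interval -0.94 to -0.19, adjusted p = 0.824), or 1.48-fold lower. Its arrays were lower without overlap, as for 14.4% of all genes (18.3% lay higher), and the difference ran from -0.82 to -0.31 over the alternatives. The other 4 genes overlapped between genotypes. Il17a differed by 0.03 (95% confidence interval -0.33 to 0.38), Il17f by 0.00 (-0.35 to 0.35), Ccl20 by 0.22 (-0.16 to 0.60) and Il23r by 0.12 (-0.21 to 0.45). The Ccl20 difference was 0.03 without Th1 Tet2-/- replicate 1 and 0.41 without Th1 Tet2-/- replicate 2.

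Whether the genotype difference itself differed between cell types was tested as an interaction, in which 0 of 19938 genes were called in limma (908 at an unadjusted p under 0.05). Without Th17 Tet2-/- replicate 1, 4 genes were called. Ccl20 had -1.23 (SE 0.249, 95% confidence interval -1.77 to -0.69, adjusted p = 0.548), rank 11 among all genes. Il17a had -0.69 (SE 0.232, adjusted p = 0.999), Il23r -0.34, Il17f -0.09 and Il21 0.14. Averaged over the cell types, Il21 had -0.49 (SE 0.122, adjusted p = 0.676), with a 95% confidence interval of -0.75 to -0.23, against -0.40 for Ccl20, -0.32 for Il17a, -0.05 for Il23r and -0.04 for Il17f. In that average 0 genes were called in limma, 1060 had an unadjusted p under 0.05, and 5 were called without Th17 Tet2-/- replicate 1.

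Likeness between genes was measured as the root mean square distance, over the 8 arrays, between profiles centred on each gene's own mean. The genes split by this measure into Il17a, Il17f and Il23r on the one side and Il21 and Ccl20 on the other. Profiles were not scaled, so the measure also sorts genes by the size of their own variation. The root mean square of the centred profile was 1.74 for Il17a, 2.08 for Il17f and 2.18 for Il23r. It was 0.93 for Il21 and 0.88 for Ccl20. Il17f and Il23r were 0.251 log2 units apart, Il17f and Il17a 0.413, and Il21 and Ccl20 0.447, while Il23r and Ccl20 were farthest apart at 1.43. Among all genes, those nearest Il17a were Cysltr1, a leukotriene receptor, at 0.277 and Maf, the c-Maf transcription factor, at 0.283, ahead of Il17f, the proton pump subunit gene Atp6v0d2 (0.519) and Il23r (0.521). Nearest Il17f were Il23r, Maf (0.319), Il17a, Atp6v0d2 (0.435) and Cysltr1 (0.569), and nearest Il23r were Il17f, Il17a, Maf (0.521), Atp6v0d2 (0.526) and Cysltr1 (0.678). Il21 and Ccl20 had other neighbours. Those of Il21 were Cd101 (0.277), Arhgap15 (0.279), Themis (0.293), Tec (0.303) and Ssh2 (0.310). Those of Ccl20 were the chemokine receptor gene Ccr4 (0.237), Itga6 (0.288), Rbl2 (0.295), Gpr83 (0.301) and Fgf2 (0.352). These are descriptions over 8 arrays that share the cell type difference.

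**Figure D4:**
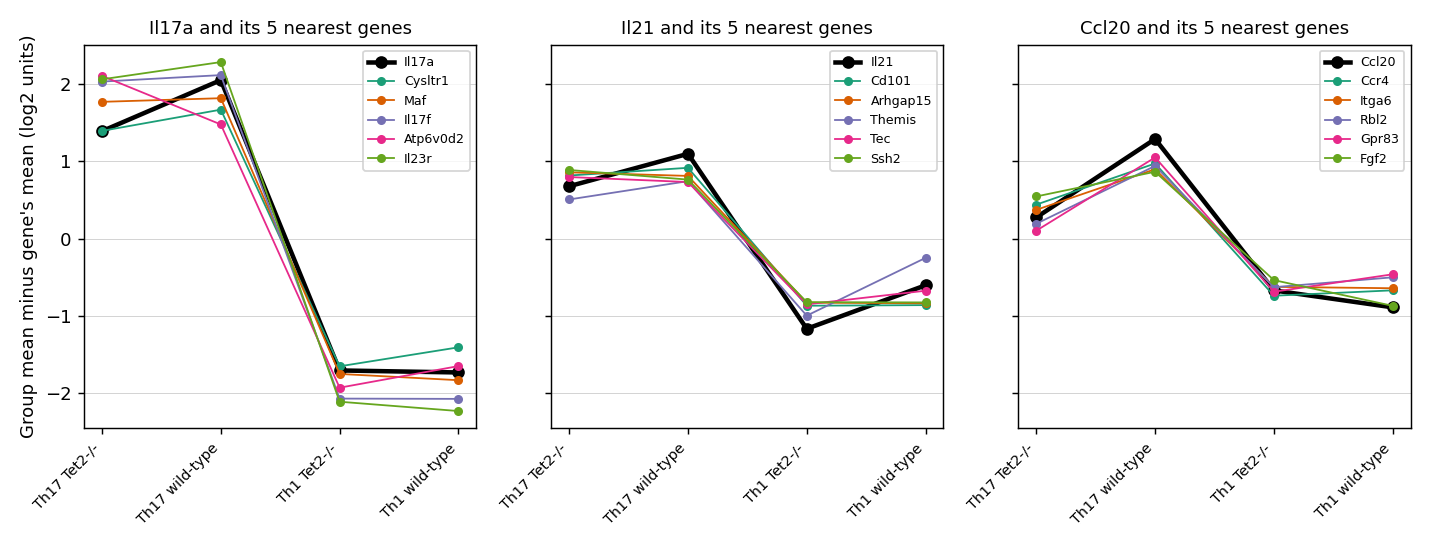
Group means minus each gene's own mean (log2 units, y axis), with the 4 groups along the x axis. Panels show Il17a, Il21 and Ccl20, each with the 5 genes nearest to it in pattern. The genes nearest Il17a are Cysltr1, Maf, Il17f, Atp6v0d2 and Il23r, and Il21 and Ccl20 have other nearest genes.

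Genes next to the members on the chromosome were read for comparison. Il12rb2, which encodes a chain of the IL-12 receptor, lies 46.6 kb from Il23r and ran the other way. It averaged 10.5 in Th17 and 11.8 in Th1 cells of the Tet2-/- genotype, a difference of -1.27 (adjusted p = 4.51e-05), and 10.2 against 11.8 in the wild-type genotype, a difference of -1.65 (adjusted p = 5.85e-06). Mcm3, a replication gene 17.7 kb from Il17f, differed by 0.12 between Th17 and Th1 wild-type cells and by 0.22 between Tet2-/- and wild-type Th17 cells. Il2, 96.8 kb from Il21, encodes the growth factor IL-2, which restrains Th17 differentiation. It differed by 0.16 between Th17 and Th1 wild-type cells and by -0.60 (SE 0.170, adjusted p = 0.746) between Tet2-/- and wild-type Th17 cells. Cetn4 beside Il21, and Agfg1 and Daw1 beside Ccl20, likewise were not called in those comparisons.

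Of 72 further genes in lists on the pathway, 66 were measured. Between Th17 and Th1 cells, 16 were called higher and 11 lower in Tet2-/- cells, and 15 higher and 7 lower in wild-type cells. Of all genes, 7.14% were called higher and 3.29% lower in Tet2-/- cells, and 5.3% higher and 3.17% lower in wild-type cells. The same shares are the background for the counts per list that follow. The median difference of the 66 was -0.01 in Tet2-/- cells and 0.04 in wild-type cells, against -0.01 for all genes in each. Among the Th17 transcription factors 4 of 10 were called higher in each genotype and 0 lower. Maf was higher by 3.52 in Tet2-/- and 3.65 in wild-type cells, and Rora, which encodes the nuclear receptor RORα, by 2.42 in Tet2-/- and 2.13 in wild-type cells. Ahr, the aryl hydrocarbon receptor, was higher by 1.86 in Tet2-/- and 1.66 in wild-type cells. Runx1 was higher by 0.82 in Tet2-/- and 0.97 in wild-type cells, and lost the Tet2-/- call without Th17 Tet2-/- replicate 1 (adjusted p = 0.0600).

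The list of receptors for cytokines that induce Th17 cells also held Il18r1, a chain of the IL-18 receptor. Of its 6 genes, 3 were called higher in each genotype. In Tet2-/- cells these were Tgfbr2 (0.90), Il18r1 (0.88) and Il6st (0.49), and in wild-type cells Tgfbr1 (1.16), Tgfbr2 (0.65) and Il6st (0.51). The calls for Il18r1, for Il6st in both genotypes and for Tgfbr2 in wild-type cells ended under 3 to 6 of 18 alternatives. Ccr6, the receptor for CCL20, was higher by 0.91 in Tet2-/- cells (adjusted p = 0.00221) and by 1.29 in wild-type cells (adjusted p = 0.000214). Of 8 genes listed as partners and kinases of the IL-21 and IL-23 receptors, Jak1 was called higher in both genotypes. Jak1 differed by 0.77 in Tet2-/- and 0.51 in wild-type cells. Il12rb2, listed with them though it encodes a chain of the IL-12 receptor, was called lower in both genotypes. Il12rb1 was called lower in Tet2-/- cells (-0.55) and Il21r in wild-type cells (-0.58). Of these, Il12rb1, Il21r and the wild-type Jak1 call ended under 8 to 12 of 18 alternatives. Il17ra, the shared IL-17 receptor chain, was the 1 called of 6 receptor chains and adaptors, in Tet2-/- cells (0.49, adjusted p = 0.0299), and lost the call under 8 of 18 alternatives. In wild-type cells none of the 6 was called, with Il17ra at 0.38 (adjusted p = 0.0860) and Il17rd at -0.33 (adjusted p = 0.0904). The other IL-17 family ligands Il17b, Il17c, Il17d and Il25 gave 0 of 4 called in either genotype, with differences of -0.19 to 0.06 and adjusted p of 0.296 or more.

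Genes that restrain IL-17 production moved both ways. Of 17 measured, 3 were called higher and 6 lower in Tet2-/- cells, and 4 higher and 3 lower in wild-type cells. Tbx21, which encodes the Th1 factor T-bet, was lower by differences of -3.30 in Tet2-/- and -2.56 in wild-type cells, and its relative Eomes by -1.36 in Tet2-/- and -1.31 in wild-type cells. Prdm1, which encodes Blimp-1, was lower by differences of -0.64 in Tet2-/- and -1.64 in wild-type cells. Bcl6, a repressor central to follicular helper cells, was higher by 1.88 in Tet2-/- and 1.18 in wild-type cells, and Ets1 by 0.70 in Tet2-/- and 1.00 in wild-type cells. The Tet2-/- calls of Prdm1 and Ets1 were lost without Th17 Tet2-/- replicate 1 (adjusted p = 0.0620 for Prdm1 and 0.0826 for Ets1). Stat5b, which acts below the IL-2 receptor, was higher by 0.54 in Tet2-/- and 0.65 in wild-type cells. Its Tet2-/- call ended under 5 of 18 alternatives and its wild-type call without Th17 wild-type replicate 2 (adjusted p = 0.0630). Egr2 was called lower in Tet2-/- cells (-0.58, adjusted p = 0.0413), a call that ended under 9 of 18 alternatives. Il27ra, an IL-27 receptor chain, was higher in wild-type cells (1.13). Of 10 other cytokines, Ifng was lower by differences of -4.28 in Tet2-/- and -5.68 in wild-type cells and Il24 by -2.29 in Tet2-/- and -2.71 in wild-type cells. Lta was lower in Tet2-/- cells (-1.02), and Il10 was called higher in wild-type cells (0.44), a call that ended under 7 of 17 alternatives. Of 8 other genes known as high in Th17 cells, 4 were called higher in Tet2-/- and 2 in wild-type cells, Smox (1.09) and Tmem176a (0.65, lost under 6 of 17 alternatives) in the Tet2-/- genotype, and Ccr6 and Tmem176b (0.72 in Tet2-/- and 0.80 in wild-type cells) in both.

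Between genotypes in Th17 cells, 0 of these 66 genes were called, and the smallest adjusted p was 0.178, for Lta at -0.95. Bcl6 differed by 0.75, Tgfbr1 by -0.51, Rora by 0.32 and Ccr6, the partner of Ccl20, by -0.27. Further list genes with small p were Il10 (-0.40), Il12rb2 (0.36), Batf (0.28), Cxcl3 (0.27), Tgfbr2 (0.26), Il17ra (0.23), Jak1 (0.23), Il17rb (-0.15), Il25 (0.07) and Il17c (-0.06), none of them called. The other cytokines had 9 of 10 lower in Tet2-/- cells with a median of -0.30, against a median of 0.02 for all genes. The list of partners and kinases of the IL-21 and IL-23 receptors, with Il12rb2, had 7 of 8 higher with a median of 0.21. The list of receptors for Th17-inducing cytokines, with Il18r1, had 5 of 6 higher with a median of 0.16. The transcription factors had 7 of 10 higher with a median of 0.04, the other genes known as high in Th17 cells 6 of 8 higher with a median of 0.08, and the IL-17 receptor chains and adaptor 4 of 6 higher with a median of 0.05. The restrainers had 13 of 17 lower with a median of -0.06, and the other IL-17 family ligands 3 of 4 lower with a median of -0.05. In Th1 cells Ifng was the 1 called of the 66, at -1.42 (adjusted p = 0.00391), a call that ended under 5 of 18 alternatives, among them without Th1 wild-type replicate 2 (adjusted p = 0.0685) and without Th1 Tet2-/- replicate 2 (adjusted p = 0.128). The next smallest p in the lists there belonged to Prdm1 (-0.77, adjusted p = 0.176). From the other lists Il27ra (0.40), Il6ra (0.39), Smox (-0.39), Il12rb1 (0.30), Il18r1 (-0.30), Runx1 (0.23), Traf3ip2 (-0.20), Tmem176b (0.20), Nfkbiz (0.18), Stat4 (-0.18), Il25 (0.16), Il17b (0.14), Il17re (0.13) and Ccr6 (0.11) were not called.

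The cultures carried T helper markers. The summed level of 6 markers such as Cd3e and Cd4 was 13.8 to 13.9 in Th17 Tet2-/- cells, against 13.7 to 13.9 in Th17 wild-type cells. Among other producers of IL-17, the 4 measured markers of γδ T cells summed to 8.62 to 8.73 in Th17 Tet2-/- cells, against 8.64 to 8.69 in Th17 wild-type cells, and to 8.71 to 8.90 on the Th1 arrays. Markers of type 3 innate lymphoid cells summed to 12.3 to 12.4 in Th17 Tet2-/- cells, against 10.9 to 11.5 in Th1 Tet2-/- cells, and to 12.2 in Th17 wild-type cells, against 11.2 to 11.4 in Th1 wild-type cells. Intensities were added before the log was taken, so this sum mostly followed Id2, the brightest of these 5 markers. Id2 averaged 12.2 in Th17 and 10.9 in Th1 cells of the Tet2-/- genotype, and 12.1 and 11.1 in the wild-type genotype. None of the others averaged above 7.94 in any group. Id2 was called higher in Th17 cells of both genotypes, by 1.23 in Tet2-/- and 1.02 in wild-type cells. Cxcr6 was called higher in Tet2-/- cells (1.61, adjusted p = 0.00187) and differed by 0.85 in wild-type cells (adjusted p = 0.0652). Kit was called higher in Tet2-/- cells (0.44, adjusted p = 0.0433) and differed by 0.10 in wild-type cells. Tox differed by 0.01 in Tet2-/- and 0.21 in wild-type cells. Ncr1 differed by 0.14 in Tet2-/- and -0.40 in wild-type cells, and its group means (4.40 to 4.79) lay under the array medians. Stromal markers were higher in Th17 Tet2-/- cells for 6 of 6, with summed levels of 9.70 to 9.73, against 9.35 to 9.38 in Th17 wild-type cells. Lum averaged 8.07 in Th17 Tet2-/- cells, against 7.04 in Th17 wild-type cells, and Dcn averaged 6.34 in Th17 Tet2-/- cells, against 5.76 in Th17 wild-type cells, while the other 4 differed less. Between cell types the 6 stromal markers did not all move the same way. Lum averaged 8.07 in Th17 and 5.20 in Th1 cells of the Tet2-/- genotype, and 7.04 and 5.26 in the wild-type genotype. Lum was called higher in Th17 cells of both genotypes, which is the direction of the 5 genes. Dcn also averaged higher in Th17 than in Th1 cells of both genotypes, while Col1a1 and Col1a2 averaged lower in both. Col3a1 and Pdgfra averaged lower in Th17 cells of the wild-type genotype and were nearly level in Tet2-/- cells. None of these markers was called between genotypes, and the part of any of these markers in the differences of the 5 genes was not tested.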

How the data were processed

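RNA from 8 cultures was measured on Affymetrix arrays. The authors deposited log2 intensities, 1 per probeset on each array. RMA and Partek produced them, per the submitters' processing notes. No source names the log base, which was read from the range of the values. Of 35556 probesets, 21789 were annotated with a single symbol, giving 19938 genes (highest mean over the arrays where a gene had several). No filter on low levels was applied. Il22, Il1r1, Il2rg, Jak3 and some other list genes were not analysed here.

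The 4 group means were estimated in 1 limma model (version 3.58.1, R 4.3.3) over the 8 arrays, with lmFit and a trended eBayes. Tests were two-sided, with Benjamini-Hochberg adjustment over all genes and a threshold of 0.05. The replicates are named biological replicates, and the number of arrays limits the precision. The script was tested on simulated data. Alternatives covered normalization, probeset choice, a filter on dim genes, the arrays fitted, the Y-linked level, the replicate number and each array left out.

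The members and lists were chosen with earlier results of these data known. The text names the members; from each list the called genes, up to 4 per direction by size, or with none called up to 2 by p, with a few further list genes named for a member's receptor or partner; the 5 genes nearest in pattern; and flanking protein-coding genes. Loci and promoter windows are from RefSeq (GRCm38.p6); 5 of 5 members matched. Figures were drawn with matplotlib 3.10.9.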

Additional observations from a re-analysis of the deposited data

How the results depend on the processing

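The differences between Th17 and Th1 cells kept their direction for all 5 genes under every alternative run, and kept their calls except for Ccl20 in Tet2-/- cells. The genotype differences of Il17a, Il21, Il23r and Ccl20 in Th17 cells kept their sign, with 2 arrays per group limiting what could pass. With Y-linked level as covariate, that of Il17f turned to 0.045, its interaction to 0.035 and its mean effect to 0.028; quantile normalization turned its Th1 difference to -0.0045. Without the arrays of lowest and highest Y-linked level the mean effect of Il23r became 0.049. Near-zero differences in Th17 cells also turned for Agfg1 (0.027 with the covariate, 0.022 without those arrays), Cetn4 (0.079 with the mean of probesets), and, without those arrays, Il17c (0.0094) and Il25 (-0.0029). Between Th17 and Th1 wild-type cells this held for Cetn4 (0.046 with the mean of probesets), Il17d (0.0071 without those arrays) and Mcm3 (-0.0031 with quantile normalization). Genes called between cell types numbered 2078 in Tet2-/- and 1689 in wild-type cells. They fell to 1064 and 622 with every probeset tested, where more features were adjusted over, and to 975 and 808 without those arrays, where fewer arrays were fitted. In Th1 cells 0 genes were called with every probeset tested, with only the 4 arrays compared or without those arrays. Leaving out dim genes gave 2 in the mean effect. Leaving out 1 array at a time gave 815 to 2383 and 667 to 1560 genes between cell types in Tet2-/- and wild-type cells, 0 to 9 between genotypes in Th17 cells (0 to 1 of the 5 members), 0 to 2 in Th1 cells, 0 to 4 for the interaction and 0 to 5 for the mean effect. Over the same settings Il17f ran from -0.28 to 0.11 in Th17 cells, -0.15 to 0.15 in Th1 cells, -0.28 to 0.11 for the interaction and -0.14 to 0.059 for the mean effect. In Th1 cells Il17a ran from -0.13 to 0.18, Il23r from -0.063 to 0.30 and Ccr6 from -0.058 to 0.27. The interaction of Il21 ran from -0.11 to 0.40 and the mean effect of Il23r from -0.14 to 0.040. The uncalled genotype differences that kept their sign still moved: in Th17 cells Il21 ran from -0.56 to -0.28 and Il23r from -0.41 to -0.04, and in Th1 cells Ccl20 ran from 0.03 to 0.41. In Th17 cells Il25 ran from -0.010 to 0.15, Il17c from -0.13 to 0.014, Cetn4 from -0.12 to 0.0069 and Agfg1 from -0.095 to 0.045. Between wild-type cell types Il17d ran from -0.16 to 0.0071, Il25 from -0.025 to 0.14, Il2 from -0.070 to 0.39, Cetn4 from -0.22 to 0.012 and Agfg1 from -0.21 to 0.11. For the reversed values the cause was not tested. A group left with 1 array was assumed to vary like the others. The interaction and the mean effect need all 8 arrays, so a fit of only the 4 arrays compared gave no value for them. Replicates with the same number did not deviate together, with correlations of -0.189 to 0.0534. The labels do not say what else these replicates shared, and correlations from 2 arrays per group cannot settle it. With the replicate block, 1810 and 1411 genes were called between cell types in Tet2-/- and wild-type cells, 0 between genotypes in Th17 cells and 1 in Th1 cells.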
